A study of Rattus norvegicus with 6 samples.

Results

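Type A receptors for γ-aminobutyric acid (GABA-A receptors) are chloride channels built from several subunits around a central pore, and 7 of their subunit genes were followed here in cultured rat retinal ganglion cells. The members are 4 α subunit genes (Gabra2, Gabra3, Gabra4 and Gabra5), 2 β subunit genes (Gabrb1 and Gabrb2) and 1 γ subunit gene (Gabrg3), taken by symbol from a table of 17366 transcripts, which holds 1 RefSeq transcript for each gene symbol. All 7 were in the table. The rule used symbols and no level or response, but the list was chosen with earlier results of these data known. Other subunit genes lie outside it.

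Retinal ganglion cells are the output neurons of the retina. They came from Sprague Dawley rats labelled postnatal day 5, were kept in culture for 10 days, and then received either 1 µg/ml of chordin-like 1 (Chrdl1), a secreted antagonist of bone morphogenetic protein signalling, or its vehicle of 0.1% BSA and 4 mM HCl for 12 h. Each group had 3 libraries of polyadenylated RNA. Each vehicle library shares a title code with 1 Chrdl1 library, and the 3 codes are called A, B and C here, in the order of their digits. The labels give neither the meaning of the codes nor the animals or cultures behind each library, so the p-values measure only the spread between these libraries, which may be technical. The extraction protocol speaks of visual cortex, whereas the other fields name ganglion cell cultures. Ganglion cell markers were abundant, with Rbpms at 78.4 to 98.1 FPKM (fragments counted per transcript, scaled for its length and the depth of the library) and the glutamate transporter gene Slc17a6 at 224 to 289, whereas the astrocyte gene Gfap was at 0.065 to 1.24. In bulk RNA such as this, fewer cells of a type and less RNA per cell cannot be told apart. Read totals recovered from the FPKM scale ran from 14546600 to 26551800 per library, the lowest being the vehicle library of code B.

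A GABA-A receptor commonly combines α, β and γ subunits. The α and γ subunits shape sensitivity to benzodiazepines, the β subunits contribute to the GABA binding site together with α, and the subunit mix sets kinetics and placement at or away from synapses. In the retina these receptors carry inhibition from GABA-releasing amacrine cells onto ganglion cells. Many of the subunit genes sit in clusters in mammalian genomes. On rn6 coordinates of the deposited table, chromosome 14 holds Gabrb1 (chr14:38643383-39112592, minus strand), Gabra4 (chr14:39154541-39229128, plus strand) and Gabra2 (chr14:39662441-39798928, plus strand). Gabrb1 and Gabra4 point away from each other with 41949 bases between their starts. Chromosome 1 holds Gabrg3 (chr1:112158530-112811954) and Gabra5 (chr1:112833989-112946731), both on the minus strand and 22035 bases apart. Gabrb2 is on chromosome 10 (chr10:27975353-28187368, plus strand) and Gabra3 on the X chromosome (chrX:152415134-152642538, minus strand). All 7 are annotated as protein-coding.

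Promoter sequences are shown for the β pair, which had the widest differences between the libraries of code C, and for the adjacent genes Gabrg3 and Gabra5, whose levels lay far apart. They are RefSeq sequences of the GRCr8 build, from 250 bases before to 50 after the gene start used in that table, which held 6 of the 7 members (not Gabra2). In the β pair the capitals mark every run of at least 9 letters present in both on the same strand. In Gabrg3 and Gabra5 they mark GGGCGG or its reverse complement CCGCCC, the GC box.
Gabrb1 (chr14:36902844-36903143, minus strand): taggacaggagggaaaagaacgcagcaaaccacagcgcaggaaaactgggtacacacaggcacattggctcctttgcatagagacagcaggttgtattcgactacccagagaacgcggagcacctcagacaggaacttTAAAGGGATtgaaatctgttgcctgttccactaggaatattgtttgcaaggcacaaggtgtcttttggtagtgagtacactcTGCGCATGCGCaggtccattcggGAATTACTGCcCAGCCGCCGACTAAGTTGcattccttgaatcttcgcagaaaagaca
Gabrb2 (chr10:27439543-27439842, plus strand): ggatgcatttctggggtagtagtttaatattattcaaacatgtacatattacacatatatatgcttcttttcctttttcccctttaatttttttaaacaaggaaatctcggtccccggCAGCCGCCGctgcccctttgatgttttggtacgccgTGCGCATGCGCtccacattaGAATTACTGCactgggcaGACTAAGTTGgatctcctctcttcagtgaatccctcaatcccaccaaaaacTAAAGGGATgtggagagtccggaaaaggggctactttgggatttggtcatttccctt
Gabrg3 (chr1:117382408-117382707, minus strand): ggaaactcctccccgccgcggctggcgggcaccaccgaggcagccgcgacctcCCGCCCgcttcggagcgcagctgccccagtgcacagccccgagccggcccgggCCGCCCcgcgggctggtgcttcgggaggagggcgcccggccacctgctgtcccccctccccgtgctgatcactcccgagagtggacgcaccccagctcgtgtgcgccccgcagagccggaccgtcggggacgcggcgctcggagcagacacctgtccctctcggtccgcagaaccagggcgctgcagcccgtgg
Gabra5 (chr1:117516557-117516856, minus strand): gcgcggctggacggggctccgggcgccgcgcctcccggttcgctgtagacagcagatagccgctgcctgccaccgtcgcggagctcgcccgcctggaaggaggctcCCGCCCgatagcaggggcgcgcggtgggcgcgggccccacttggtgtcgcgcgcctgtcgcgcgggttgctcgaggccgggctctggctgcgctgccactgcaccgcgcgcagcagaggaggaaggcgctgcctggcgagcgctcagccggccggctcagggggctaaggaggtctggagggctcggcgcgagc

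The β pair shared 5 such runs, the longest of 11 letters, whereas the other 14 pairs of member promoters shared 0 to 3. In both, 3 of the runs, TGCGCATGCGC, GAATTACTGC and GACTAAGTTG, follow each other in the same order. They begin at positions -30, -7 and 13 relative to the listed start in Gabrb1 and at -96, -76 and -58 in Gabrb2. The first contains GCGCATGCGC, the palindromic binding motif of nuclear respiratory factor 1, which 285 of 33469 promoters of the same length (0.852%) hold. This motif was picked after the sequences had been seen. GGGCGG, searched on both strands, was in the promoters of Gabra4, Gabra5 and Gabrg3 and in 33.1% of all promoters. TATAAA was in that of Gabra3 and in 14.2% of all, and GGCGCC, a GC-rich element bound by Smad proteins, was in those of Gabra5 and Gabrg3 and in 11.0% of all. No matches of these 4 motifs overlapped in the member promoters. A match describes letters in this window and is not a measured binding site.

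Gabra2 was the most abundant of the 7 subunit transcripts in every library. Its level was 48.3, 45.1 and 32.2 FPKM in the vehicle libraries of codes A, B and C and 50.2, 40.5 and 44.1 FPKM in the Chrdl1 libraries, so that its lowest value lay above the highest value of any other member. It averaged 43.4 ± 6.44 FPKM (SD, n = 6), from 1449 to 2616 reads per library, and 11.3% of the 14171 transcripts above 0 had a higher mean. The α2 subunit is known for its place in receptors of the axon initial segment and of synapses.

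The middle of the order was held by 4 members whose ranges overlapped. Gabrb2 averaged 9.05 ± 2.73 FPKM, Gabra3 7.62 ± 1.13, Gabrg3 7.23 ± 2.34 and Gabrb1 5.58 ± 1.73 (SD, n = 6 each), close to the middle of all transcripts above 0, of which 44.8% to 54.2% had a higher mean. Neighbours in this order did not keep their places in every library. Gabrb2 was above Gabra3 in 3 of 6 libraries, Gabra3 above Gabrg3 in 4 of 6 and Gabrg3 above Gabrb1 in 5 of 6. Gabrb2 was above Gabrb1 in 6 of 6.

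Gabra4 and Gabra5 were the least abundant, and neither reached 1 FPKM in 3 libraries, the minimum for testing. The α4 subunit is best known from extrasynaptic receptors with a δ subunit, and α5 from tonic inhibition in the hippocampus. Gabra4 was at 1.05, 0.451 and 0.947 FPKM in the vehicle libraries of codes A, B and C and at 0.913, 1.00 and 0.407 in the Chrdl1 libraries, from 12 to 47 reads. Gabra5 was at 0.479, 0.861 and 0.545 FPKM in the vehicle and 0.587, 0.599 and 0.776 in Chrdl1 libraries, from 30 to 48 reads. Both genes had overlapping groups, and Gabra4 was above Gabra5 in 4 of 6 libraries. Their place in a cluster did not go with a common level. Gabra2 averaged 54.6 times Gabra4 and 7.77 times Gabrb1 on chromosome 14, and Gabrg3 averaged 11.3 times Gabra5 on chromosome 1.

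**Figure D1:**
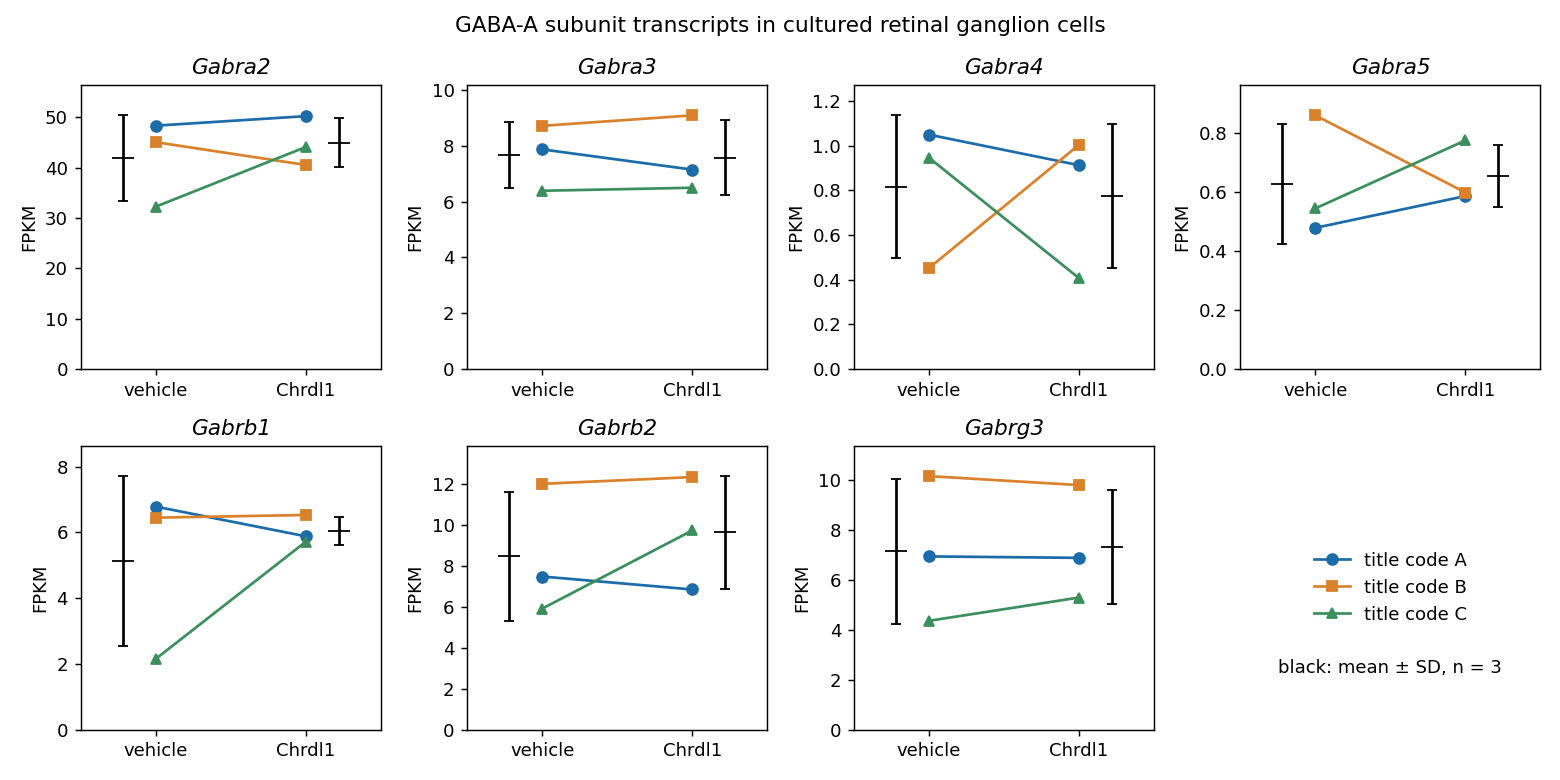
FPKM (vertical axes, from 0) of the 7 subunit transcripts in vehicle and Chrdl1 libraries, where each line connects a vehicle and a Chrdl1 value of one title code and black marks give the group mean ± SD (n = 3). The vehicle library of code C is the lowest for Gabra2, Gabra3, Gabrb1, Gabrb2 and Gabrg3, and at 2.15 FPKM for Gabrb1.

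Chrdl1 was set against vehicle to see whether these transcripts had altered within 12 h of its addition. No subunit gene passed the threshold, which was a Benjamini-Hochberg adjusted p under 0.05 over 10390 transcripts in limma. Treatment was the only term of this main fit. Over all transcripts 0% were called, with 18 at an unadjusted p under 0.05 in limma and 5 in limma voom on recovered reads, which also called 0. With the title code as a block, limma again called 0, with 535 at an unadjusted p under 0.05, 100 higher and 435 lower. With the title code as a block in voom, 0.0192% were called, with 630 at an unadjusted p under 0.05, and no member among those called. Of the 5 members tested, 4 had a positive log2 fold change of FPKM + 1 (Chrdl1 minus vehicle), with a median of 0.12 beside -0.028 over all tested transcripts, of which 38.4% were positive. Without the vehicle library of code C, which leaves its Chrdl1 partner in the fit, 0 of the 5 were positive and their median was -0.11, beside 48.4% and -0.0050 over all. The vehicle and Chrdl1 ranges overlapped for all 7 members.

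Among the α subunit genes, Gabra2 averaged 41.9 ± 8.51 FPKM in vehicle and 44.9 ± 4.91 in Chrdl1 libraries (SD, n = 3 each). Its log2 fold change was 0.12 ± 0.17 (SE), with a 95% interval from -0.28 to 0.51, and it was -0.058 without the vehicle library of code C. Gabra3, a subunit found in receptors of monoamine and retinal neurons, was at 7.87, 8.72 and 6.39 FPKM in the vehicle libraries of codes A, B and C and at 7.15, 9.10 and 6.50 in the Chrdl1 libraries. The libraries of a code lay side by side, and the log2 fold change was -0.016 ± 0.17, with an interval from -0.42 to 0.39; its sign turned with the median centred, with voom and with the length trend removed. Without a filter on low values, Gabra4 and Gabra5 had log2 fold changes of -0.034 ± 0.19 and 0.028 ± 0.11 (limma adjusted p = 1 for both), where 0% of 14171 transcripts were called.

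The β subunit genes had the largest estimates of the 5 tested members, and the interval of Gabrb1 was the widest. Gabrb1 was at 6.78, 6.45 and 2.15 FPKM in the vehicle libraries of codes A, B and C and at 5.88, 6.53 and 5.72 in the Chrdl1 libraries. A single vehicle library, that of code C, lay apart from the other 5. The log2 fold change of 0.31 ± 0.35 had an interval from -0.51 to 1.13, and without that library it was -0.11. Gabrb2 was at 7.48, 12.0 and 5.91 FPKM in the vehicle and at 6.84, 12.3 and 9.73 in Chrdl1 libraries. Here code B was high in both groups, and the vehicle library of code C was again the lowest. The log2 fold change of 0.19 ± 0.28 had an interval from -0.49 to 0.86, and it was -0.015 without the vehicle library of code C.

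Gabrg3, encoding a less common γ subunit, was at 6.93, 10.1 and 4.36 FPKM in the vehicle libraries of codes A, B and C and at 6.88, 9.79 and 5.29 in the Chrdl1 libraries. The codes kept the same order in both groups. Its log2 fold change was 0.058 ± 0.31, with an interval from -0.67 to 0.79. It was -0.21 without the vehicle library of code C and -0.15 without the Chrdl1 library of code B. Such fits, also those above, keep the partner of the library left out, so differences between codes enter them. Within codes A, B and C, Gabrg3 differed by -0.010, -0.047 and 0.23. With the code as a block and both libraries of code C left out, Gabrg3 was at -0.029. The interval allows changes of either sign in each of the 5 tested genes, and a smaller one results when the code is a term of the fit, at -0.087 to 0.32 for Gabra2, -0.22 to 0.19 for Gabra3, -0.093 to 0.71 for Gabrb1, -0.087 to 0.46 for Gabrb2 and -0.16 to 0.27 for Gabrg3.

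**Figure D2:**
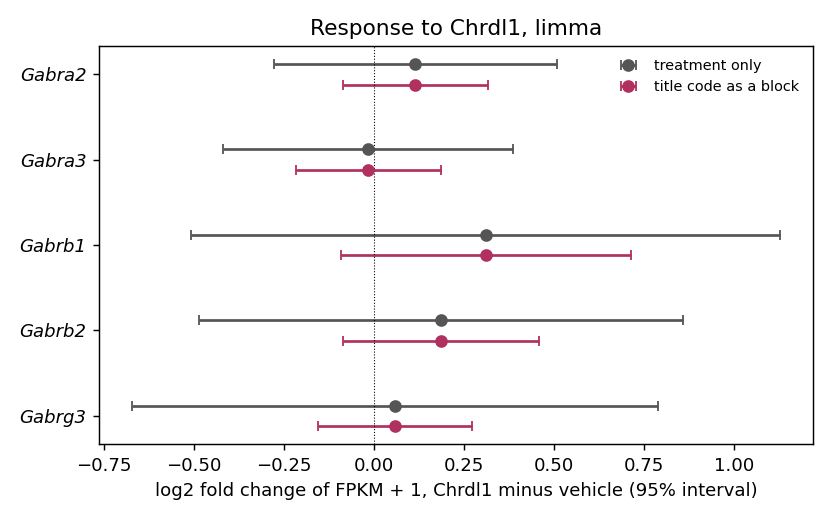
Log2 fold change of FPKM + 1, Chrdl1 minus vehicle, with its 95% interval (horizontal axis) for the 5 tested subunit genes, from limma with treatment only and with the title code as a block. All 10 intervals include 0, and that of Gabrb1 with treatment only is the widest, from -0.51 to 1.13.

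The subunit genes did not differ between Chrdl1 and vehicle in the same way in the 3 codes. Of the 5 tested members, 1 was higher with Chrdl1 in code A, 3 in code B and 5 in code C, where 43.8%, 43.5% and 39.4% of all tested transcripts were higher. None was higher in all 3 codes (7.55% of all tested transcripts were) and none was lower in all 3 (19.5% were). The members' median differences in codes A, B and C were -0.11, 0.016 and 0.44 on the log2(FPKM + 1) scale, beside -0.013, -0.022 and -0.055 for all tested transcripts.

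In code C, Gabrb1 differed by 1.09 on the log2(FPKM + 1) scale, and 8 of 10390 tested transcripts had a larger positive difference. Its FPKM in the Chrdl1 library was 2.66 times that in the vehicle library (95% exact interval 2.12 to 3.35), from 264 and 109 reads. Gabrb2 differed by 0.63 there, with 54 transcripts above it, and its FPKM ratio was 1.65 (1.38 to 1.96). Gabra2 differed by 0.44, with 243 transcripts above it, and its FPKM ratio was 1.37 (1.29 to 1.45). Gabrg3 and Gabra3 differed by 0.23 and 0.021 in code C. These intervals cover counting error only, and they compare 2 libraries, not the conditions. In code A the same genes lay within a ratio of 0.867 for Gabrb1 and 1.04 for Gabra2, with all 7 member intervals including 1.

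The low-abundance Gabra4 differed in opposite directions in 2 codes. Its FPKM with Chrdl1 was 2.23 times that with vehicle in code B (95% exact interval 1.15 to 4.65, from 42 and 12 reads) and 0.430 times in code C (0.234 to 0.755, from 18 and 46 reads). Of the 21 such ratios over 7 members and 3 codes, the intervals of 6 left out 1, and 4 of these were in code C. Among the 5 tested members, the interval left out 1 for 0 in code A, 1 in code B and 3 in code C, where it did so for 14.7%, 29.6% and 51.8% of all tested transcripts. These shares pool both directions. In code C the 3 members lay above 1, where 18.5% of all tested transcripts had an interval above 1 and 33.2% one below 1. In code B the 1 member, Gabra2, lay below 1, where 18.6% of all tested transcripts did.

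**Figure D3:**
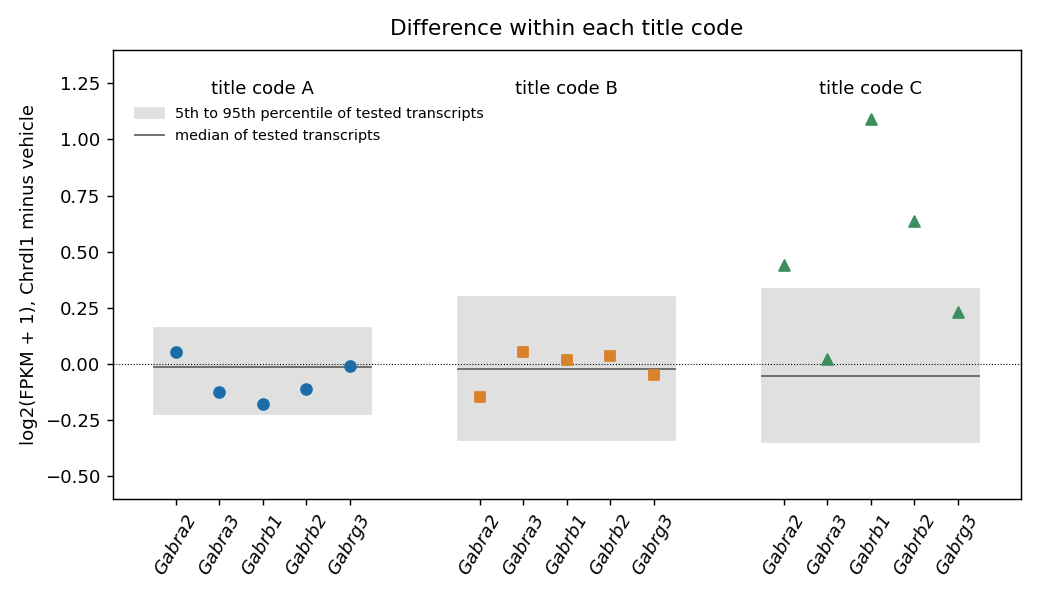
Difference in log2(FPKM + 1), Chrdl1 minus vehicle (vertical axis), of the 5 tested subunit genes within each title code, over a grey band from the 5th to the 95th percentile of all tested transcripts and a line at their median. In code C, Gabra2 (0.44), Gabrb2 (0.63) and Gabrb1 (1.09) lie above the band, whose upper edge is 0.33.

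All 5 tested members had their lowest value in the vehicle library of code C. For Gabra3 it was 6.39 FPKM, beside 6.50 in the Chrdl1 library of that code. Gabra4 was lowest in the Chrdl1 library of code C (0.407 FPKM) and Gabra5 in the vehicle library of code A (0.479). Which library of a code departed was not tested. The vehicle library of code C was the lowest for 15.3% of all tested transcripts. It was the lowest for 10.3% of those from 1000 to under 2500 bases long, the range that includes the tested members. It was also the highest for 30.4% of tested transcripts, beside 10.4% to 18.1% for each of the others. The summed level of the 7 members was 52.5 FPKM in that library and 72.5 to 83.7 in the other 5. Without Gabra2 the sum was 20.3 FPKM there and 28.2 to 39.3 elsewhere. Between the vehicle and Chrdl1 libraries of code C, the marker lists had summed levels of 2475 and 2207 FPKM for ganglion cells, 155 and 146 for amacrine cells, 64.9 and 70.4 for bipolar cells and photoreceptors, and 208 and 186 for microglia. With the code as a block and the trend of each library on transcript length removed, the log2 fold changes were 0.15 ± 0.093 for Gabra2, 0.35 ± 0.19 for Gabrb1 and 0.23 ± 0.13 for Gabrb2, none called.

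Between title codes, unlike between treatments, the tested members passed the threshold. In limma's moderated F-test of the 3 codes, with treatment as a term, all 5 had an adjusted p under 0.05, against 47.4% of all tested transcripts, and 3 of the 5 calls ended when a single library was left out. Gabrg3 had the strongest difference (adjusted p = 0.000224), and 8.70% of tested transcripts had a larger F. Its means in codes A, B and C were 6.90, 9.97 and 4.82 FPKM, and the 2 libraries of a code differed by at most 0.23 on the log2(FPKM + 1) scale. Gabrb2 had an adjusted p of 0.00523 in limma, with 7.16, 12.2 and 7.82 FPKM in codes A, B and C.

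The direction of these differences was shared in part. Code C was lower than code B for 4 of the 5 (limma adjusted p under 0.05; 11.7% of all transcripts were lower by this test), by -0.92 ± 0.12 (SE) for Gabrg3, -0.70 ± 0.23 for Gabrb1, -0.61 ± 0.15 for Gabrb2 and -0.41 ± 0.11 for Gabra3 on the log2(FPKM + 1) scale. Code C was lower than code A for 3 of the 5, where 9.94% of transcripts were, by -0.45 ± 0.12 for Gabrg3, -0.67 ± 0.23 for Gabrb1 and -0.38 ± 0.11 for Gabra2. Code B was higher than code A for 2 of the 5, Gabrb2 by 0.69 ± 0.15 and Gabrg3 by 0.47 ± 0.12, where 14.0% of transcripts were. No member was called lower in B than in A, higher in C than in A or higher in C than in B, where 15.0%, 21.0% and 20.2% of transcripts were. Without the vehicle library of code C, Gabrb1 no longer differed between codes (limma adjusted p = 0.766), and Gabra2 and Gabra3 were at 0.0604 and 0.0648. Gabra2 and Gabra3 also lost the call without the vehicle library of code A (limma adjusted p = 0.148 and 0.0636) or the Chrdl1 library of code A (0.0584 and 0.0689), and Gabra3 without the Chrdl1 library of code B (0.110). Gabrb2 and Gabrg3 kept it whichever single library was left out. Each such fit leaves a single library in the code concerned, so its p-values rest mainly on spread pooled over all transcripts. A call kept or lost there is a weak check. With no filter on low values, only Gabrg3 of the 7 members was called (adjusted p = 0.0120), where 28.7% of transcripts were. With quantile normalization Gabra2 was not called (limma adjusted p = 0.126), where 44.7% of transcripts were, nor with a pseudocount of 0.1 (0.0520).

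**Figure D4:**
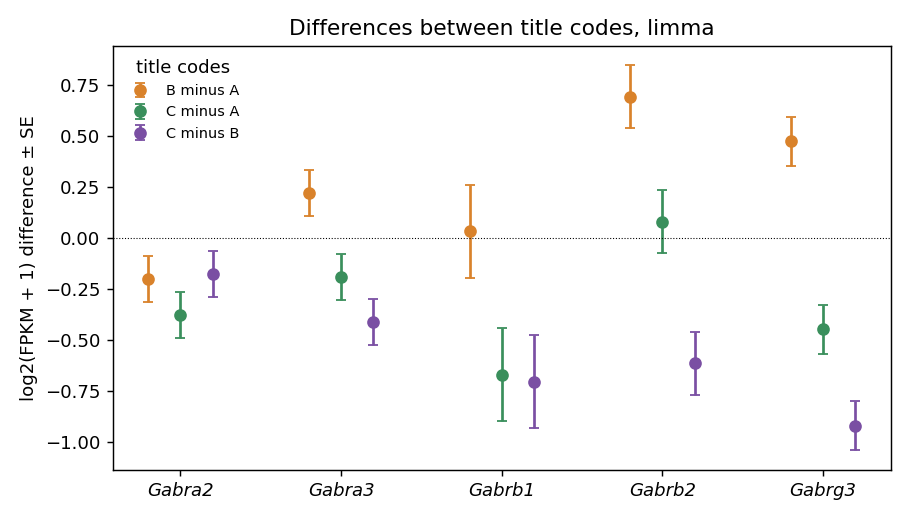
Differences between title codes in log2(FPKM + 1) ± SE (vertical axis) for the 5 tested subunit genes, from limma with treatment as a term. Gabrg3 shows the largest difference, -0.92 for code C minus code B, and code B minus code A is positive for 4 of the 5 genes, of which Gabrb2 and Gabrg3 had a limma adjusted p under 0.05.

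Markers of other cells moved with the codes as well. The 5 bipolar and photoreceptor markers reported summed to 64.9 and 70.4 FPKM in the code C libraries and 14.2 to 15.0 in the others. Most of the code C sum was Crx, at 44.4 and 45.5 FPKM there and 2.15 to 4.88 elsewhere. Grm6, the glutamate receptor gene of ON bipolar cells, was at 11.3 and 12.7 FPKM in code C and 0.374 to 0.574 elsewhere. Prkca went the other way, with means of 8.89, 12.0 and 7.02 FPKM in codes A, B and C. The 7 microglia and macrophage markers summed to 21.1 and 11.4 FPKM in code B and 132 to 208 in the others, although Cx3cr1 was at most 0.063 FPKM. Within codes A, B and C this sum was 158, 21.1 and 208 FPKM in vehicle and 132, 11.4 and 186 in Chrdl1 libraries, lower with Chrdl1 each time. Of its 6 tested markers, 0 had a positive log2 fold change. Limma called 0 of them for treatment, with or without the code as a block. With the block, 4 of the 6 had an unadjusted limma p under 0.05, as had 535 of all 10390 tested transcripts. The 6 astrocyte and Müller glia markers summed to 8.46 and 8.37 FPKM in code C and 0.719 to 1.78 elsewhere, with Aqp4 at 0 in 5 of 6 libraries. The 10 amacrine markers in the table summed to 144 and 140 FPKM in code A, 130 and 121 in code B and 155 and 146 in code C (vehicle and Chrdl1), most of it from Gad2 and Calb2. Some less abundant members of that list were higher in code C. Means in codes A, B and C were 1.77, 1.94 and 5.25 FPKM for Gad1, 0.635, 0.312 and 2.45 for Slc32a1 and 0.527, 0.278 and 1.95 for Tfap2b. Others were not, with 0.26, 0.13 and 0.25 FPKM for Chat and 0.902, 1.15 and 1.10 for Slc18a3. The part of these cells in the subunit differences was not tested.

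The genes whose profile over the 6 libraries lay nearest to each tested member were found by the root mean square difference of log2(FPKM + 1), after each gene's own mean was subtracted. This is a description over libraries that share title codes. Nearest to Gabra3 was Isl1, a ganglion cell transcription factor, at 0.022, followed by Smyd5 and Mark1 at 0.034 each. Nearest to Gabra2 were Fam49a (0.035), Tbc1d24 (0.048) and Ptprt (0.051). Gabrg3 was nearest to Dok6 (0.068), Zfp483 (0.078) and the calcium channel gene Cacna1i (0.083). Gabrb2 was nearest to Mir6315 (0.078), the presynaptic scaffold gene Pclo (0.080) and Trpv6 (0.098). Gabrb1, at 0.14 to 0.15 from Lifr, Xkr4 and Kcna2, had no profile as close to its own. No member was among the 3 nearest of another. The closest of the members to each other were Gabra3 and Gabrg3, at 0.220, followed by Gabra2 and Gabra3 at 0.225. How near they ranked depended on the side taken. By distance from Gabra3, Gabrg3 ranked 4671 and Gabra2 4858, and the median of all tested transcripts was 0.233. By distance from Gabrg3, Gabra3 ranked 351, beside a median of 0.419. By distance from Gabra2, Gabra3 ranked 2903, beside a median of 0.277.

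The composition of the α and β members was set out as shares of their summed FPKM. Gabra2 made up 79.1% to 85.3% of the 4 α members, Gabra3 12.1% to 17.8%, Gabra4 0.786% to 2.36% and Gabra5 0.830% to 1.56%. Other α and β subunit genes are not in these denominators. The Gabra2 share was 82.0% ± 1.69 in vehicle and 83.2% ± 3.54 in Chrdl1 libraries (SD, n = 3 each), a difference of 1.24 percentage points (exact two-sided permutation p = 0.6). Gabrb1 made up 47.6%, 34.9% and 26.7% of the 2 β members in the vehicle libraries of codes A, B and C and 46.2%, 34.6% and 37.0% in the Chrdl1 libraries. In codes A and B the libraries of a code were alike, and in code C they were 10.3 points apart. The β difference was 2.88 points (exact two-sided permutation p = 0.8). Gabra3, Gabra4 and Gabra5 differed by -0.982, -0.234 and -0.0287 points (exact p = 0.8, 0.7 and 0.9). All 5 shares had an adjusted p of 0.9, and 3 libraries against 3 cannot give an exact p below 0.1.

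Genes that work with GABA-A receptors were described from 5 lists, and none of their tested genes passed the treatment threshold with or without the title code as a block. Of the 12 other GABA-A family genes, 5 were tested, 3 with a positive log2 fold change; Gabrq, the θ subunit gene, had 4.14 ± 1.55 FPKM in vehicle and 5.04 ± 1.70 in Chrdl1 libraries (SD, n = 3 each). Of 23 tested genes for receptor assembly, trafficking and anchoring, 8 were positive, with a median of -0.014. Gphn, encoding the scaffold gephyrin, had 22.3 ± 0.886 FPKM in vehicle and 22.2 ± 1.05 in Chrdl1 libraries. Gabarapl2, a GABARAP relative, had a log2 fold change of -0.17 ± 0.15, and Dag1, the dystroglycan gene, one of -0.10 ± 0.11. Here and in the lists below, the error of a fold change is the SE of the treatment-only fit, which includes the spread between codes. With the code as a block, the SE was 0.082 for Gabarapl2 and 0.077 for Dag1.

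Of 11 tested genes for GABA synthesis, packaging, uptake and breakdown, 6 were positive. The 2 enzymes that make GABA differed in level, with Gad2 at 51.2 to 68.3 FPKM and Gad1 at 1.64 to 5.59. Slc32a1, the vesicular GABA transporter, was at 0.276 to 2.88 FPKM and was not tested. The glutamine transporter gene Slc38a1 and the glutamine synthetase gene Glul had log2 fold changes of 0.081 ± 0.14 and -0.11 ± 0.18. Their SE with the code as a block was 0.078 and 0.063. Of 12 tested chloride transport genes, 8 were positive. The chloride exporter gene Slc12a5 (KCC2) had 25.3 ± 7.89 FPKM in vehicle and 24.0 ± 6.91 in Chrdl1 libraries, and the importer gene Slc12a2 (NKCC1) at 5.67 ± 1.25 and 5.89 ± 2.01. The kinase genes Wnk1 and Wnk3, of the pathway that sets the activity of these transporters, had log2 fold changes of 0.13 ± 0.13 and 0.21 ± 0.20. For these kinase genes the SE with the block was 0.082 and 0.12.

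The metabotropic GABA-B receptor genes were abundant in both groups. Gabbr1 had 144 ± 14.1 FPKM in vehicle and 143 ± 14.5 in Chrdl1 libraries, and Gabbr2 46.8 ± 6.45 and 47.2 ± 6.63. Of the 7 tested genes in that list, 4 were positive. Kctd8, an auxiliary subunit gene, and Kcnj9, a potassium channel gene, had log2 fold changes of -0.046 ± 0.11 and -0.061 ± 0.15 (SE with the block 0.088 and 0.12). Between codes, 4 of these 7 genes were called lower in code C than in code A and 0 higher (limma adjusted p under 0.05), where 9.94% of all tested transcripts were called lower and 21.0% higher. The other lists had genes called both ways, with 2 lower and 2 higher among the other GABA-A family genes, 5 and 5 for assembly, trafficking and anchoring, 1 and 3 for GABA synthesis and uptake, and 1 and 4 for chloride transport.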

How the data were processed

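Polyadenylated RNA of 6 libraries was analysed, 3 per group. FastQC, STAR 2.4.0k, HOMER 4.8.3 and the build rn6 are named in the submitters' processing notes. Not given in the sources used here: annotation release, read filters and counting strand. FPKM values were deposited by the authors with transcript lengths. Per the labels, the kit was strand-specific. Read totals were recovered as the scale on which FPKM times length gives whole numbers, which held within the 0.0005 FPKM of rounding for 99.7% to 99.9% of values (3.74% to 6.74% by chance). PCR duplicates are not known, so read intervals cover counting error only.

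Limma 3.58.1 (R 4.3.3; two-sided moderated tests, trend on) was run on log2(FPKM + 1) for the 10390 transcripts that reached 1 FPKM in 3 or more libraries. Adding 1 understates changes of low genes. Shares and sequences were computed in Python 3.11.15 with numpy 2.4.6, pandas 2.3.3 and scipy 1.17.1. The estimates of the fit were checked on values simulated from the blocked fit with known changes. That check says nothing about treatment differences in these libraries.

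Deviations from group means, across tested genes, correlated between libraries of a code at 0.82, 0.86 and 0.84 for A, B and C, so the codes were taken to pair the libraries. The code as a block, pseudocounts, filters, scalings, voom and left-out libraries were tried.

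The members and lists were chosen with earlier results of these data known. All members are named; from each list, called genes or else the 2 with the smallest unadjusted p, and 8 genes fixed by name. One gene so named and 2 markers of the bipolar and photoreceptor list are not reported here, and the sum of that list leaves them out. All 7 member accessions were found in the RefSeq gene table of GRCr8, used for names and promoters only.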

Additional observations from a re-analysis of the deposited data

How the results depend on the processing

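No member was called for treatment under any alternative tried, and the block by title code changed no call of a member. The count of transcripts called for treatment was 0 except with the block on 2 codes, where limma called 25 without code A and 34 without code B, and with the block on voom (chosen after seeing the data), where it called 2; the cause was not tested. Leaving 1 library out of the treatment-only fit keeps its partner of the same code, so differences between codes enter the estimate. With 1 library left out, the log2 fold change ran from -0.058 to 0.23 for Gabra2, -0.14 to 0.076 for Gabra3, -0.11 to 0.54 for Gabrb1, -0.015 to 0.44 for Gabrb2 and -0.21 to 0.32 for Gabrg3. With the replicate block and without both libraries of code C the sign turned for Gabra2 (-0.048), Gabrb1 (-0.081), Gabrb2 (-0.038) and Gabrg3 (-0.029). Without code A or B, which leaves code C as 1 of 2 pairs, the blocked values were larger for Gabrb1, at 0.55 (95% interval 0.21 to 0.89, limma adjusted p = 0.224) and 0.46 (0.20 to 0.72, 0.126). Gabrb2 was at 0.34 (0.049 to 0.62, 0.757) and 0.26 (0.023 to 0.50, 0.693), and Gabra2 at 0.15 (-0.079 to 0.37, limma adjusted p = 1.00) and 0.25 (0.057 to 0.44, 0.503). The intervals from 2 pairs rest mainly on the spread that limma pools over all transcripts. The Gabrb1 differences within codes B and C, behind 0.55, were 0.016 and 1.09, both outside its interval. Gabra3, near 0, turned with median centring (0.00045), voom (0.0063), the block with the length trend removed (0.022) and the block without code A (0.038). The count called between codes, 4930, ran from 3148 (without the Chrdl1 library of code A; the cause was not tested) to 5581 on leaving out 1 library. Share differences ran from 0.187 to 3.29 points for Gabra2, -2.79 to 0.0219 for Gabra3, -0.657 to 0.114 for Gabra4, -0.239 to 0.128 for Gabra5 and -1.98 to 8.47 for Gabrb1 (-1.98 without the vehicle library of code C). Paired by code, the exact sign-flip p of the shares was 0.75 to 1. Gabra4 and Gabra5 rest on 12 to 48 reads per library, which limits what can be seen of them.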

Other observations

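Gabrr2, encoding a ρ subunit of GABA receptors known from retinal bipolar cells, had 8.52 (vehicle) and 7.10 (Chrdl1) FPKM in code C and at 0.100 to 1.08 FPKM in the other 4. Gabrr1, its chromosome 5 neighbour and also a ρ subunit gene, was at 2.24 and 2.30 FPKM in code C and 0.534 to 0.741 elsewhere. The 2 genes were chosen after their values had been seen.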
